A study of Mus musculus with 24 samples.

Results

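The transcript response of RAW264.7 cells to 1 h of LPS was read from 4 of the 24 arrays of the series, which were chosen by the ligand and the incubation time in their labels. The 2 LPS arrays, A and B, held RNA from cells given 100 ng/ml LPS of Salmonella minnesota R595, a TLR4 ligand. The 2 untreated arrays, also A and B, held RNA from cells of the same line incubated for 1 h without a ligand. RAW264.7 is a macrophage-like mouse line from a virus-induced tumour, so it is a transformed model of a macrophage, and the methods describe the arrays of a group as duplicate biological samples. The other 20 arrays came from the same line given LPS for 2 or 4 h, 1 μM P3C (a synthetic lipopeptide, TLR2 ligand) or 1 μM R848 (an imidazoquinoline, TLR7 ligand) for 1, 2 or 4 h, or no ligand for 2 or 4 h. The comparison asked which transcripts had moved, in either direction, at the earliest time sampled.

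LPS is a glycolipid of the outer membrane of Gram-negative bacteria, which CD14 hands to the receptor complex of TLR4 and MD-2. TLR4 signals from the plasma membrane through MyD88 to NF-κB and the MAP kinases, and from endosomes through TRIF to IRF3 and the type I interferon genes. The genes that answer soonest in a macrophage are called primary response genes, because their transcription relies on factors already present in the cell. They include immediate-early transcription factors, cytokines and chemokines, and inhibitors that feed back on the same pathways.

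Each array gave a signal intensity and a detection p-value for 45281 probes. On the 4 arrays the median signal was 103 to 113, and 12554 to 13830 probes had a detection p under 0.01. Signals were put on the log2 scale and quantile-normalized, so that a difference of 1 is a doubling, and the brightest detected probe stood for each of 8622 genes. The replicates correlated across these genes, which are not independent, at r = 0.9866 for LPS and 0.9887 for untreated cells. Of 12 macrophage markers 11 were detected on all 4 arrays, among them Csf1r, Cd68, Adgre1 and Spi1, and Itgam was detected on some. For each other cell type only 2 of the markers listed had a named probe. Those of T cells, B cells, mast cells and fibroblasts were not detected on any of the 4 arrays. The neutrophil marker S100a8 was detected on all 4 and the epithelial marker Krt8 on some.

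LPS raised 181 genes (2.1% of those tested) and lowered 122 (1.41%) within 1 h, at an adjusted p under 0.05 in limma. The rises were the larger changes, with a median of 0.94 on the log2 scale, and they were led by chemokines, cytokines, NF-κB and MAP kinase inhibitors and immediate-early transcription factors. Of the rises 84 were at least 2-fold, 38 at least 4-fold, 22 at least 8-fold and 9 at least 16-fold. The falls had a median of -0.51, and 4 of them were at least 2-fold. In RNA of a whole culture, more cells with a transcript and more of it per cell cannot be told apart. On both untreated arrays 21 of the raised genes were not well above background, and on both LPS arrays 7 of the lowered ones. Other detected probes of the called genes numbered 166, of which 152 had the same sign, 61 were called in the same direction and none in the opposite one. The median difference over all genes tested was -0.03, and the standard error of a difference had a median of 0.125. For all 303 genes called, the LPS arrays lay outside the range of the untreated arrays of 1 h, as they did for 38.2% of all genes tested. The LPS arrays also lay outside the range of all 6 untreated arrays of the series for 180 of the rises, the exception being Nupr1, and for 116 of the falls. Those 6 include the untreated arrays of 1 h that made the calls, and the share over all genes was not computed.

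**Figure D1:**
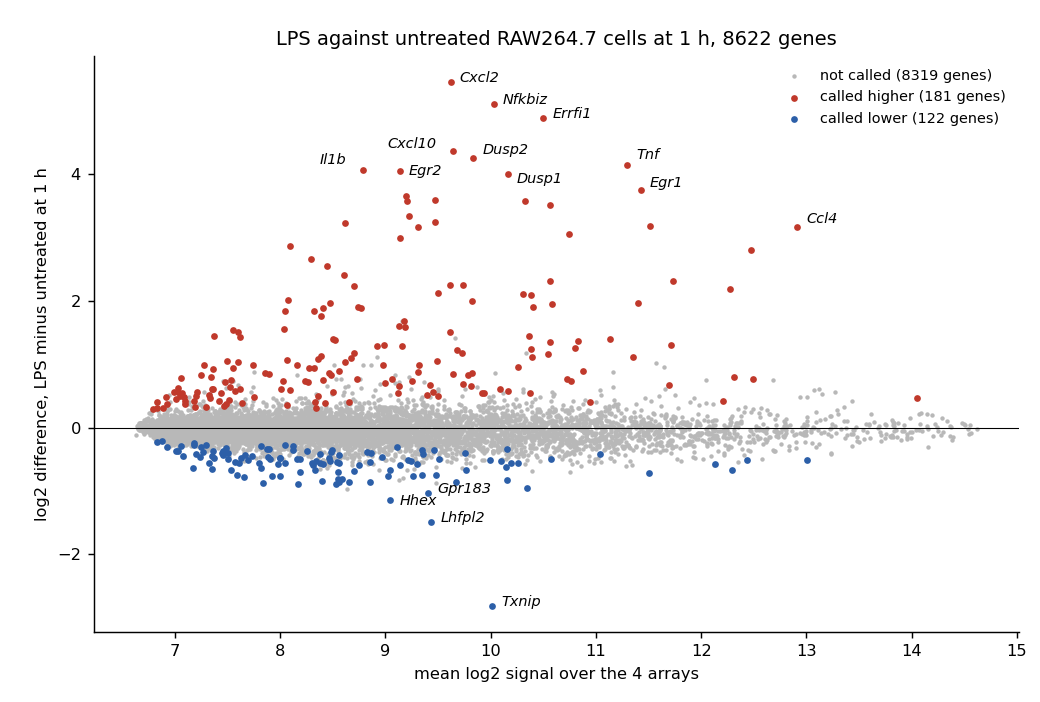
Each point is 1 of 8622 genes, with its mean log2 signal over the 4 arrays on the x axis and its log2 difference, LPS minus untreated at 1 h, on the y axis. The 181 genes called higher (red) reach 5.45, whereas of the 122 called lower (blue) Txnip alone lies below -2.

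The count of falls depended on the scaling and on single arrays. With each array scaled to a common median instead of quantile normalization 90 genes rose and 7 fell, so that rises made up 92.8% of the calls in place of 59.7%, and with the 4 arrays fitted alone 71 rose and 7 fell (91%). The share was 70.7% at an adjusted p under 0.01 and 48.1% with all 6 untreated arrays as the control. Falls numbered 58 without LPS array A, 70 without untreated array A and 55 without untreated array B, and rises numbered 122 to 149 when 1 of the 4 arrays was left out. No slide held both an LPS and an untreated array of 1 h. LPS array B did share a slide with untreated array A of 4 h, and within that slide all 181 rises were positive (median 1.00) and 121 of the 122 falls negative (median -0.46), the exception being Syne3. Because LPS array B also made the calls and the control was of another time, these signs are no separate test of the calls. The share over all genes was not computed.

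The largest rise was that of Cxcl2, a chemokine that attracts neutrophils. Its log2 signal was 12.57 and 12.12 on the LPS arrays and 6.82 and 6.97 on the untreated arrays, of which 1 detected it, a difference of 5.45 (SE 0.273, adjusted p = 2.31e-09). Nfkbiz encodes IκBζ, a nuclear IκB protein that modifies NF-κB target transcription. It read 12.60 and 12.57 with LPS against 7.34 and 7.60, and this gap of 5.11 (SE 0.126, adjusted p = 5.64e-13) was many times the distance between its replicates. Errfi1, an inhibitor of EGF receptor family kinases, read 12.98 and 12.91 against 8.02 and 8.09, a rise of 4.89 (SE 0.110, adjusted p = 3.03e-13). Its replicates lay close together in both groups. All of the 15 genes with the largest rises kept their call in every alternative run on them.

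**Figure D2:**
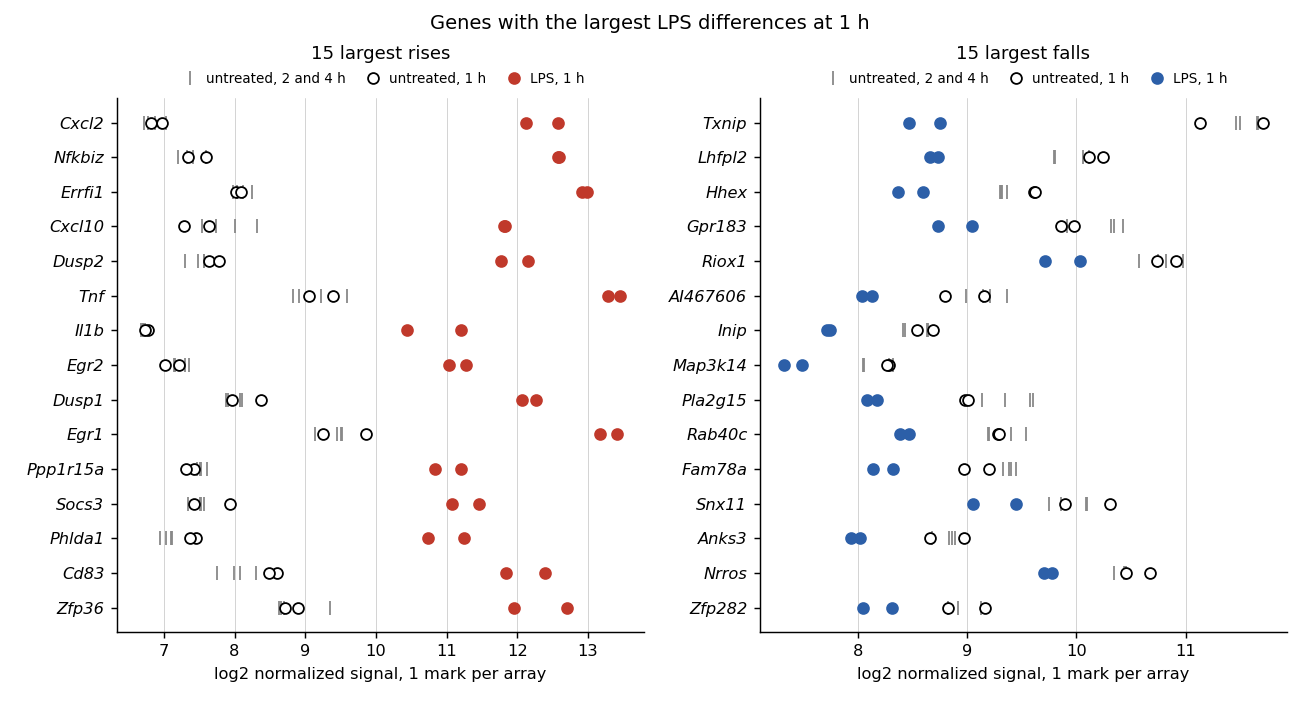
Log2 normalized signal of the 15 genes with the largest rises (left) and the 15 with the largest falls (right), with 1 mark per array for LPS at 1 h (filled), untreated at 1 h (open circles) and untreated at 2 and 4 h (ticks). For each gene, chosen by its change at 1 h, the LPS arrays lie outside the range of all 6 untreated arrays. Txnip shows the widest gap among the falls.

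Of 23 chemokine genes listed 12 were measured, of which 8 were called higher and none lower, against 2.1% of all genes. The list median was 0.92. A gene was measured if both arrays of any group detected it, LPS groups included. In this list and those below, members seen only with LPS thus count, and silent ones drop out. Cxcl10, a ligand of CXCR3 that recruits T cells, read 11.83 and 11.82 against 7.29 and 7.64 (difference 4.36, SE 0.253, adjusted p = 1.33e-08). Ccl4 and Ccl3, inflammatory chemokines secreted by macrophages, were already bright in untreated cells and still rose. Ccl4 went from 11.15 and 11.52 to 14.48 and 14.52 (difference 3.17, SE 0.143) and Ccl3 from 10.826 and 11.315 to 13.995 and 13.743 (2.80, SE 0.234). Ccl5, which attracts T cells and monocytes, rose by 2.02, Ccl2, which attracts monocytes, by 1.05, Ccl9 by 0.80 and Cxcl16, a transmembrane chemokine, by 0.40.

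Among cytokines and growth factors, 10 of 25 rose (40%, against 2.1% of all genes) and none fell. Their median of 0.25 became 0.20 when genes below background were set at their bound. Tnf, the central inflammatory cytokine, read 13.46 and 13.29 with LPS and 9.05 and 9.39 without (difference 4.15, SE 0.198, adjusted p = 1.44e-09). Il1b and Il1a, the interleukin-1 genes, were not well above background on either untreated array. Il1b read 11.21 and 10.44 with LPS, at least 15.4-fold higher (adjusted p = 8.83e-10), and Il1a 9.70 and 9.36, at least 6.28-fold higher (adjusted p = 1.1e-09). Here a bound compares the LPS mean with the lowest signal that counts as detected. Ifnb1, interferon-β, was in the same position and was at least 2.32-fold higher. Tnfsf9, the 4-1BB ligand, rose by 3.24 and Osm, oncostatin M, by 2.99. Il6 and Nos2, textbook LPS-induced genes, were not well above background on any of the 4 arrays.

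Of the NF-κB subunits, IκB proteins and feedback regulators, 12 of 25 rose (48%, against 2.1% of all genes) and none fell. The list median was 0.57. Nfkbia encodes IκBα, which holds NF-κB in the cytoplasm and is itself an NF-κB target. It read 12.46 and 12.32 against 10.28 and 10.56 (difference 1.97, SE 0.121, adjusted p = 2.74e-08). Tnfaip3 encodes the ubiquitin-editing inhibitor A20, and its arrays hardly spread, at 10.226 and 10.236 against 6.997 and 7.010 (3.23, SE 0.143, adjusted p = 8.83e-10). Traf1, a TNF receptor adaptor, rose by 3.34, Nfkbid, another nuclear IκB protein, by 2.31, Tnfaip2 by 2.09 and the subunit Rela by 0.57. Tnip1, a partner of A20, had a difference of 1.18 (SE 0.330, adjusted p = 0.0675) and Tank, a TRAF-binding adaptor, one of 0.72 (adjusted p = 0.0589), and neither was called. Fewer of the list were called higher with median scaling (7) and with the 4 arrays alone (5).

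The MAP kinase phosphatases and feedback inhibitors split, with 6 of 10 higher (60%, against 2.1% of all genes) and 1 lower (10%, against 1.41%). Dusp1 encodes the nuclear phosphatase MKP-1, which inactivates p38 and JNK. It read 12.08 and 12.26 against 7.96 and 8.37 (difference 4.00, SE 0.146, adjusted p = 9.27e-11). Dusp2, another nuclear phosphatase, read 11.78 and 12.15 against 7.63 and 7.78 (4.26, SE 0.137, adjusted p = 1.97e-11). Dusp4 rose by 1.90 and Dusp16, a JNK phosphatase, by 1.30. Dusp6, the cytoplasmic ERK phosphatase, was the member that fell, from 8.64 and 8.76 to 8.10 and 8.16 (-0.57, SE 0.120, adjusted p = 0.0113), and its call was lost with median scaling, with the 4 arrays alone, at an adjusted p under 0.01, without LPS array A and without untreated array B.

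Of 26 immediate-early transcription factors and related genes 15 rose (57.7%, against 2.1% of all genes) and none fell, with a median of 0.77. Egr2 and Egr1 are zinc finger factors of the EGR family. Egr2 read 11.04 and 11.28 against 7.01 and 7.21 (difference 4.04, SE 0.171, adjusted p = 6.0e-10), and Egr1 13.18 and 13.42 against 9.25 and 9.86 (3.74, SE 0.191, adjusted p = 2.76e-09). Egr3 rose by 3.16, the stress gene Ier3 by 3.18 and Csrnp1, a nuclear protein induced by AXIN1, by 2.54. Among the genes of the AP-1 dimer, Junb rose by 2.31, Fosl2 by 2.23 and Jun by 0.86. Fos read 9.526 and 9.584 against 9.383 and 9.003, and its difference of 0.36 was not called (SE 0.155, adjusted p = 0.333). Ets2 and Btg1, the latter an antiproliferative gene, had differences of 0.38 and 0.49 that did not pass either (adjusted p = 0.149 and 0.115).

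RNA decay factors and SOCS proteins gave 4 rises among 15 genes (26.7%, against 2.1% of all genes) and no fall. Zfp36 encodes tristetraprolin, which destabilizes AU-rich mRNAs such as that of Tnf. It read 12.70 and 11.95 against 8.72 and 8.89 (difference 3.52, SE 0.212, adjusted p = 2.06e-08). Socs3, an inhibitor of cytokine receptor signalling, read 11.08 and 11.46 against 7.42 and 7.93 (3.59, SE 0.245). The RNase gene Zc3h12a rose by 1.88. Pde4b, a phosphodiesterase that degrades cAMP and was counted in this list, was not well above background in untreated cells and was at least 1.38-fold higher with LPS.

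Promoter sequence was set beside these changes for the genes that RefSeq gives a window, 250 bases before to 50 after the start, in the GRCm38.p6 build. Of the rises 140 had such a window and of the falls 95. A match to GGNNTTTCC, letters of the κB site bound by NF-κB, was present for 20.7% of the rises, 11.6% of the falls, 7.6% of all genes tested and 5.82% of all windows. The AP-1 letters TGANTCA were present for 13.6%, 6.32%, 6.13% and 7.81% of these sets, the cAMP response element TGACGTCA for 7.14%, 4.21%, 3.92% and 1.79%, and the CArG box, bound by serum response factor, for 3.57%, 1.05%, 1.49% and 1.63%. A gene with several windows counted once, and matches of different motifs may overlap. All were searched on both strands. A match is a description of the letters and not a site in use. The stretches below carry the match in capitals with 30 bases on each side, 5′ to 3′ on the gene's strand, and belong to the genes among the 15 largest rises and falls whose NF-κB or CArG match lies before the start: Cxcl2 at chr5:90903773-90903860 and Egr2 at chr10:67537464-67537533 on the plus strand, and Cxcl10 at chr5:92349009-92349077, Zfp36 at chr7:28379247-28379316 and Fam78a at chr2:32064336-32064404 on the minus strand.
Cxcl2: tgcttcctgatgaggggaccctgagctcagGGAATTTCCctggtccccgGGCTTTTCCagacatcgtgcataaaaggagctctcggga
Cxcl10: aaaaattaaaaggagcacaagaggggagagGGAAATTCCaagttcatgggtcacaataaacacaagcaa
Egr2: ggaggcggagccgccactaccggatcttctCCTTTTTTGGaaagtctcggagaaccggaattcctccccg
Zfp36: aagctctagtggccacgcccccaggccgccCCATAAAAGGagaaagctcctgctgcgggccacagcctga
Fam78a: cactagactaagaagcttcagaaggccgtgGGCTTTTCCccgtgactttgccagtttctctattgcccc
Cxcl2 held 2 NF-κB matches, which began 96 and 77 bases before its start, and Cxcl10 held 1 that began 158 bases before. Egr2 and Zfp36 held a CArG match that began 72 and 58 bases before the start. Fam78a held an NF-κB match 210 bases before its start and fell with LPS, by 0.86 (adjusted p = 0.00238), so the letters occurred on both sides. Txnip had an NF-κB match and Gpr183 a CArG match that lie after the start, and these stretches are not shown. Errfi1, Dusp1 and Ppp1r15a had the cAMP response element letters.

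Of 29 genes listed as surface receptors of activated macrophages 19 were measured. Of these 10 rose (52.6%, against 2.1% of all genes) and none fell, with a median of 0.42. Cd83, a marker of activated antigen-presenting cells, read 12.39 and 11.84 against 8.60 and 8.49 (difference 3.57, SE 0.202, adjusted p = 9.52e-09). Ccrl2, an atypical chemokine receptor, rose by 2.66, Clec4e, the receptor Mincle, by 1.95, Cd40 by 1.84 and the adhesion molecule Icam1 by 1.45. Marcksl1, which was counted in this list but is not a receptor, rose by 2.10. Cd44, the hyaluronan receptor, had an uncalled difference of 0.34 (adjusted p = 0.445). Of 14 genes listed as prostaglandin, nitric oxide, itaconate and antioxidant enzymes 5 rose (35.7%) and none fell. Their list median was 0.09. Acod1, which makes itaconate, read 12.26 and 12.28 against 9.03 and 9.41 (3.05, SE 0.183), and Srxn1, Odc1 and Sod2 rose by 0.99, 0.77 and 0.42. Slc7a11, a transporter counted in this list, rose by 0.63. With median scaling 1 gene of the enzyme list and 6 of the receptor list were called. Gpr84, a receptor for medium-chain fatty acids, rose by 2.19, and Nlrp3, the inflammasome sensor, was at least 2.78-fold higher.

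Of 23 apoptosis, survival and GADD45 genes 10 rose (43.5%, against 2.1% of all genes) and none fell, with a median of 0.38. Ppp1r15a, the stress-induced phosphatase subunit GADD34, read 11.20 and 10.84 against 7.42 and 7.32 (difference 3.65, SE 0.179, adjusted p = 1.96e-09). Phlda1 rose by 3.58 (SE 0.496), with the widest error among the largest rises. Bcl2l11, which encodes the death-promoting protein BIM, rose by 1.89, Gadd45a by 1.84 and Gadd45b by 1.77. Bid and Bbc3, which are also death-promoting, had differences of -0.49 and 0.60 that were not called (adjusted p = 0.458 and 0.295). Kdm6b, a histone H3 lysine 27 demethylase, was the 1 of 19 chromatin genes (5.26%) that rose, by 2.41 (SE 0.249). Plk2 and Ccnl1 were the 2 of 27 cell cycle genes (7.41%) that rose, by 1.97 and 0.72. Arc, known for its part at neuronal synapses, was at least 2.71-fold higher.

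**Figure D3:**
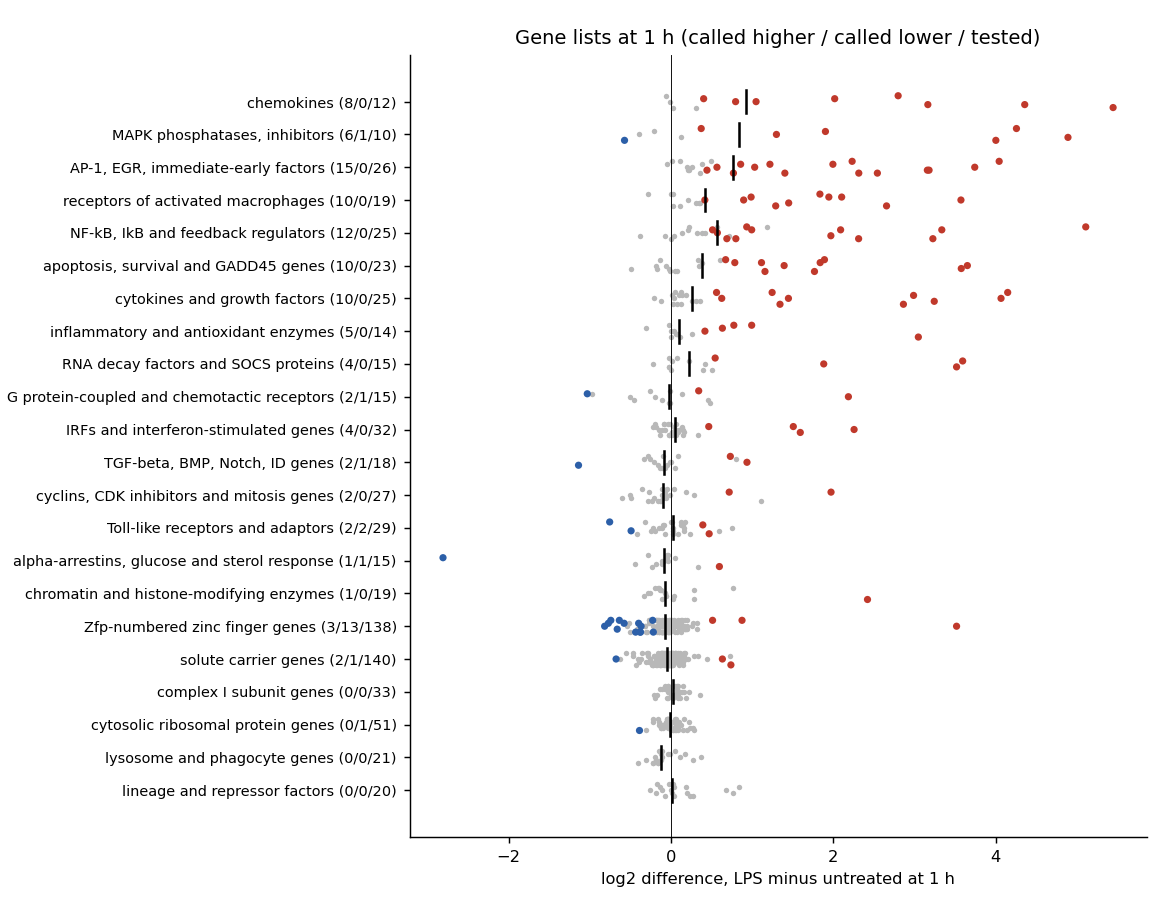
Log2 difference, LPS minus untreated at 1 h, of each measured member of 22 gene lists, with 1 point per gene (red called higher, blue called lower, grey not called), a vertical bar at the list median and the counts in brackets. Chemokines (8 of 12 higher), immediate-early factors (15 of 26) and NF-κB regulators (12 of 25) lie to the right. No lysosome, complex I or lineage factor gene was called, where 2.1% of all genes were called higher and 1.41% lower.

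Of 32 interferon regulatory factors and interferon-stimulated genes 4 rose at 1 h, or 12.5% against 2.1% of all genes, none fell, and the list median was 0.05. Oasl1, an interferon-stimulated gene, read 10.68 and 10.80 against 8.72 and 8.25 (difference 2.26, SE 0.194). The antiviral gene Rsad2 rose by 1.59, Isg15, a ubiquitin-like modifier, by 1.51 and the guanylate-binding protein gene Gbp3 by 0.47. At 4 h 29 of the same 32 genes, of 38 listed, were higher with LPS, where 10.8% of all genes were. Detection with LPS at 4 h alone was enough for a gene to be measured, so this share is no separate test.

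Of 29 Toll-like receptors, adaptors and proximal kinases, 2 rose (6.9%, against 2.1% of all genes) and 2 fell (6.9%, against 1.41%). Cd14 rose by 0.47 (adjusted p = 0.0474) and Ikbke, a kinase of IRF3, by 0.39 (adjusted p = 0.0147). Tlr4, the LPS receptor, read 7.92 and 7.91 with LPS against 8.47 and 8.34 (-0.49, SE 0.0844, adjusted p = 0.00222), so its arrays did not overlap. Tab1, a partner of the kinase TAK1, fell by 0.76 (adjusted p = 0.0148). Tlr2 read 12.99 and 13.13 against 12.44 and 12.17, and its difference of 0.76 was not called (adjusted p = 0.0845).

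The largest fall was that of Txnip, an alpha-arrestin that restrains glucose uptake and binds thioredoxin. Its log2 signal was 8.47 and 8.75 with LPS against 11.13 and 11.71 (adjusted p = 3.8e-05), and it was the only one of the 15 largest falls that kept its call in every alternative run on them. Txnip was also the only fall past 4-fold. Lhfpl2, a tetraspan membrane protein gene, fell from 10.25 and 10.12 to 8.73 and 8.66 (-1.49, SE 0.0764, adjusted p = 2.95e-09). Hhex, a homeobox repressor, fell from 9.62 and 9.63 to 8.59 and 8.37 (-1.14, SE 0.098, adjusted p = 1.6e-06). Gpr183 is a receptor for oxysterols that guides immune cell migration. It fell from 9.98 and 9.86 to 8.74 and 9.05 (-1.03, SE 0.114, adjusted p = 2.86e-05). All 3 lost their call with median scaling, where their sign did not change. Map3k14, the kinase NIK of the non-canonical NF-κB pathway, fell by 0.87, Pla2g15, a lysosomal phospholipase, by 0.87, Riox1, a nucleolar oxygenase, by 0.95, Nrros, which binds latent TGF-β in myeloid cells, by 0.82, and Rab40c, Anks3, Inip, AI467606 and Snx11 by 0.84 to 0.89.

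Zinc finger protein genes named Zfp with a number made up 13 of the falls, among 138 measured, or 9.42% against 1.41% of all genes. Their median of -0.08 lay close to that of all genes, and it was -0.04 with genes below background set at their bound. Zfp282 read 8.04 and 8.31 against 8.83 and 9.17 (-0.82, SE 0.167, adjusted p = 0.00966), and Zfp28 7.63 and 7.60 against 8.37 and 8.41 (-0.77, SE 0.0874, adjusted p = 3.66e-05). Zfp12 and Zfp41 fell by 0.74 and 0.66, and Zfp763 was at least 1.48-fold lower, as it was not well above background with LPS. These genes encode mostly DNA-binding repressors whose targets are little known. The 3 members that rose (2.17%, against 2.1% of all genes) were Zfp36, an RNA-binding protein, Zfp263 (0.88) and Zfp330 (0.51). The count of lower Zfp genes was 2 with median scaling, 1 with the 4 arrays alone, 26 with all 6 untreated arrays as the control and 5 without LPS array A or without untreated array B.

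No gene was called among 20 macrophage lineage and repressor factors, 21 lysosome genes or 33 complex I genes. Of all genes 2.1% were called higher and 1.41% lower, so lists of this size would hold few calls. Among 51 ribosomal protein genes 1 fell (Rpl22, -0.39), or 1.96%. Of 140 solute carrier genes 2 rose (Slc15a3 0.74 and Slc7a11 0.63), or 1.43%, and 1 fell (Slc6a12 -0.68), or 0.714%. Of 18 TGF-β, BMP, Notch and ID genes 2 rose (11.1%, against 2.1% of all genes) and 1 fell (5.56%, against 1.41%). Hhex fell, and Id3, an inhibitor of DNA binding, and Tgif1, a repressor of TGF-β signalling, rose by 0.94 and 0.73, while Skil, another repressor, had an uncalled difference of 0.80 (adjusted p = 0.121). Ccnd1, cyclin D1, had a difference of -0.50 (adjusted p = 0.149). Stat3, the complement gene C3, Ly86, Cd81 and Lyz2 had differences of 0.08, 0.02, 0.17, -0.27 and -0.31 that did not pass. The lysozyme gene Lyz2 was nearest (adjusted p = 0.0783).

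Most of the genes called at 1 h were called the same way later, when the lists were much longer. LPS raised 476 genes at 2 h (5.52% of those tested) and 934 at 4 h (10.8%), and lowered 546 (6.33%) and 1377 (16%). Of the 181 rises of 1 h, 150 (82.9%) were called higher at 2 h, 138 (76.2%) at 4 h and 130 at both, which were 31.5% of the 2 h list and 14.8% of the 4 h list. Of the 122 falls, 73 (59.8%) were lower at 2 h and 93 (76.2%) at 4 h, or 13.4% and 6.75% of those lists. Only at 1 h were 21 of the rises and 19 of the falls called.

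The difference between LPS and untreated cells itself changed between 1 and 4 h for many genes. Over all genes it became more positive for 478 (5.54%) and more negative for 386 (4.48%), of which 39 and 41 were rises of 1 h, and 8 and 18 falls of 1 h. With median scaling these counts over all genes were 117 and 262, so that the order of the directions turned. Egr2 fell back from 4.04 to 1.46 at 2 h and to 0.18 at 4 h, where it was not called, and Egr3 from 3.16 to 2.18 and -0.15. Errfi1 went from 4.89 to 2.00 and 1.45, Dusp1 from 4.00 to 3.29 and 0.95, Dusp2 from 4.26 to 2.84 and 2.25, and Tnfsf9 from 3.24 to 1.74 and 1.04. Egr1 was not called at 2 h (0.34) and was higher again at 4 h (1.98). On the other side Ccl5 rose from 2.02 to 4.38 and 5.79, Rsad2 from 1.59 to 3.75 and 5.25, Isg15 from 1.51 to 2.74 and 4.36, Gbp3 from 0.47 to 1.42 and 3.91, and Saa3, an acute-phase protein gene, from 0.84 to 2.34 and 3.75. Il1b was at least 48.2-fold higher at 2 h and at least 89.9-fold at 4 h, Ccl2 at least 25.2-fold and Cxcl2 at least 59.6-fold at 4 h. Tnf stood at 4.15, 4.59 and 4.41 with no called change.

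**Figure D4:**
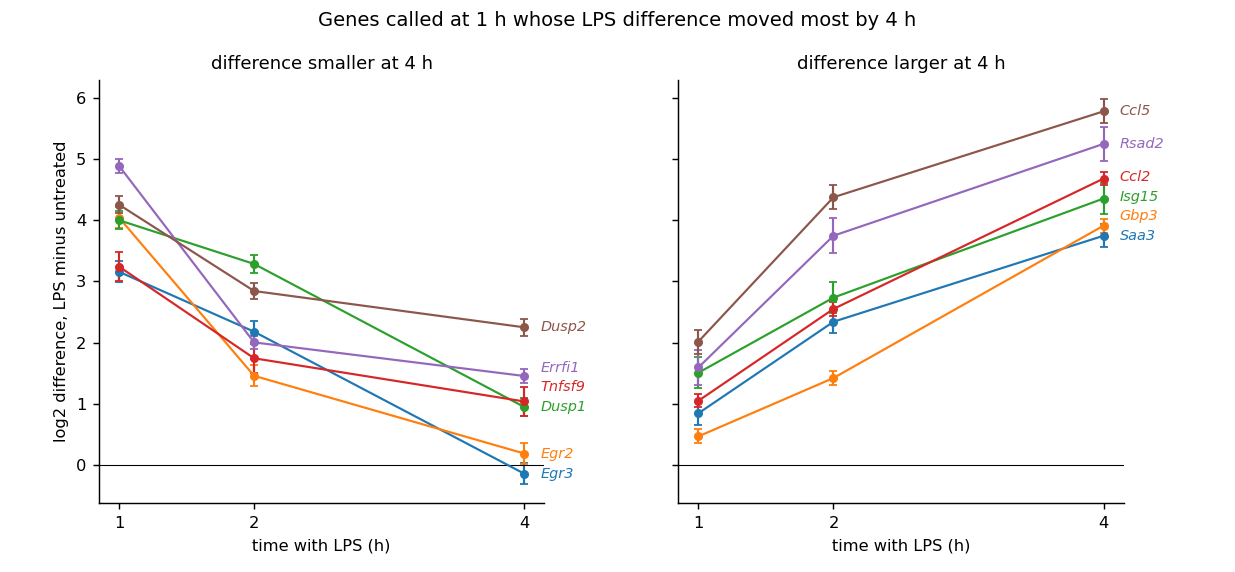
Log2 difference, LPS minus untreated at the same time, at 1, 2 and 4 h for the 6 genes called at 1 h whose difference became most negative by 4 h (left) and the 6 whose difference became most positive (right), with the standard error of the fit over 2 arrays a group as bars. Errfi1 goes from 4.89 to 1.45 and Egr2 from 4.04 to 0.18, while Rsad2 goes from 1.59 to 5.25.

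A few genes changed direction with time. Jun was higher at 1 h (0.86) and lower at 2 h (-0.64), and Dnajb1, a heat shock co-chaperone gene, was higher at 1 h (0.54) and lower at 2 and 4 h (-0.34 and -0.74). At 2 h only 1 LPS array detected Jun, so its value there lies near background. Dusp6 and Nrros were lower at 1 h (-0.57 and -0.82), not called at 2 h and higher at 4 h (1.32 and 0.70). Kif1b, a kinesin gene, was lower at 1 h (-0.32) and higher at 2 h (0.50). Other detected probes of Kif1b differed by -0.103, -0.014 and 0.044 at 1 h and were not called. The change from 1 to 4 h passed the test for the 3 genes called in opposite directions at those times (adjusted p = 1.54e-06 for Dusp6, 7.91e-07 for Nrros and 2.1e-05 for Dnajb1). For Jun and Kif1b, not called at 4 h, the change from 1 to 2 h was not tested. Txnip fell by 2.81, by 2.23 at 2 h and by 0.57 at 4 h, which was not called, and Hhex was 0.24 at 4 h, also not called. Gpr183 continued down to -2.39 and -2.64 and Lhfpl2 to -2.24 and -2.07. Among untreated arrays, 1 gene (Ankrd37) differed between 1 and 2 h and 6 between 1 and 4 h (Adm, Ankrd37, Eno2, Jmjd6, Tfrc and Zkscan14), of which Zkscan14 was also called with LPS at 1 h.

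At 1 h, 9 genes were higher with LPS than with both other ligands, among them Cxcl10, Oasl1, Ifnb1 and Dusp1. LPS exceeded P3C for 18 genes (0.209% of those tested) and fell below it for none (0%), with 180 genes at an unadjusted p under 0.05. With the slide as a random block 47 genes were higher with LPS and 16 lower, and with median scaling 5 were higher. Against R848, 9 were higher (0.104%) and 1 lower (0.0116%), with 105 at an unadjusted p under 0.05, and these counts were 14 and 2 under the same slide term and 3 and 0 with median scaling. The ligands differ in kind and were given at 100 ng/ml for LPS and 1 μM for the others, so equal doses were not compared. LPS array A shared a slide with P3C array A and R848 array A, and LPS array B with P3C array B. Of the 18 genes 17 and of the 9 genes 8 were also called higher with LPS than in untreated cells, Fos being the exception in both.

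Cxcl10 showed the widest difference between the ligands. The LPS arrays read 11.83 and 11.82, those of P3C 9.19 and 9.17 and those of R848 9.27 and 9.01. LPS thus lay 2.64 above P3C (SE 0.253, adjusted p = 6.54e-05) and 2.68 above R848 (same SE, adjusted p = 0.00022). Against untreated cells, whose arrays all 3 ligands share, it stood at 4.36, 1.72 and 1.68. Oasl1 stood at 2.26 with LPS, 0.40 with P3C and 0.35 with R848, and Trex1, a cytosolic DNA exonuclease, at 1.60, 0.34 and 0.40. The values of P3C and R848 for these 2 genes were not called against untreated cells (adjusted p = 0.378 to 0.556). Ifnb1 was 1.17 higher with LPS than with P3C and 1.18 higher than with R848, where 1 array of each ligand detected it.

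The other genes higher with LPS than with both ligands were Ppp1r15a (by 1.84 over P3C and 1.26 over R848), Dusp1 (1.73 and 0.96), Tnfaip3 (1.62 and 1.07), Csrnp1 (1.53 and 1.03) and Fos. The P3C arrays of Fos read 8.35 and 8.17 and the R848 arrays 8.72 and 8.61, all below both untreated arrays, and it stood at -0.93 with P3C (adjusted p = 0.00207) and -0.53 with R848 (adjusted p = 0.095) against untreated cells. Higher with LPS than with P3C alone were Il1a, Ccl5, Acod1, Zfp36, Tnf, Il1b, Egr2, Nfkbia and Dusp2, by 1.61 for Il1a down to 0.93 for Dusp2. Their differences from R848 were 0.18 to 0.98 and were not called, which does not show that LPS and R848 act alike. Itpkc, an inositol trisphosphate kinase gene, was the 1 gene higher with R848, at 9.24 and 9.33 against 8.17 and 8.30 with LPS (difference -1.05, SE 0.112, adjusted p = 0.000396). The count of genes higher than with P3C was 11 without P3C array A. The count against R848 was 4 without LPS array A, 5 without LPS array B, 5 without R848 array A and 2 without R848 array B.

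**Figure D5:**
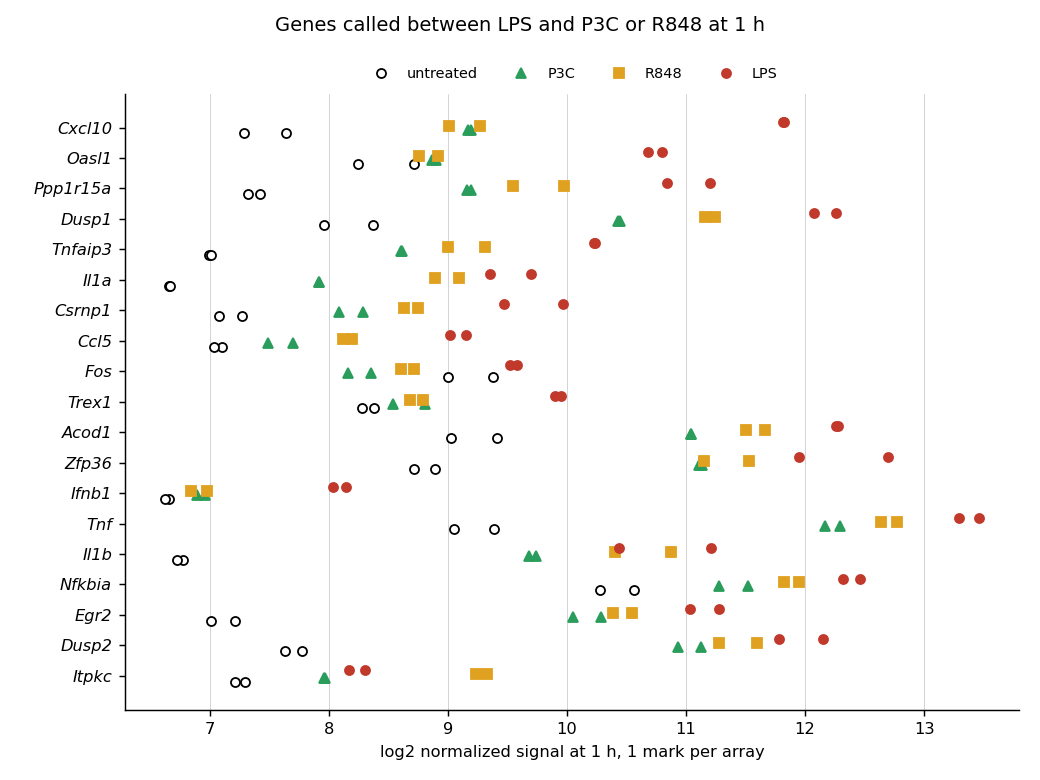
Log2 normalized signal at 1 h of the 19 genes called between LPS and P3C or R848, with 1 mark per array (untreated open circles, P3C triangles, R848 squares, LPS filled circles, 2 arrays each). Cxcl10, Oasl1, Trex1 and Ifnb1 lie apart with LPS, and Itpkc lies highest with R848.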

How the data were processed

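RNA of RAW264.7 cells was hybridised as labelled cRNA to Illumina BeadChips (MouseRef-8 in the methods, while the deposited table lists 45281 probes, so the array version is uncertain). The deposited table holds one signal intensity and one detection p-value per probe and array, which per the submitters' processing notes came from GenomeStudio 2011.1. The authors' normalized table holds log2 values, quantile-normalized, for part of the probes and served as an alternative. The deposited scanner files of the 4 arrays gave bead numbers (median 41 or 42 a probe) and bead standard errors (median 2.85 to 2.97% of the signal), and the number of arrays limits the precision.

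Here intensities of all 24 arrays were log2-transformed and quantile-normalized. A probe was kept if the 2 arrays of any of the 12 groups had a detection p under 0.01 for it (14119 probes, 12540 of them named), and the brightest stood for a gene. Names came from the platform table (19969 probes), updated through RefSeq gene ID (16512) or accession (1422), with 2035 left as they stood. limma 3.58.1 in R 4.3.3 fitted the 12 group means to all 24 arrays, which share 1 estimate of the spread (12 residual degrees of freedom), without a replicate block, and p-values were adjusted by Benjamini-Hochberg over all 8622 genes in each comparison. The fit was run on simulated data with independent errors, which leave out any dependence between arrays of a slide. p-values measure the spread between these samples, of which nothing beyond the word biological says how they were separated. The replicate letters were not taken as pairs, because the labels do not say what the letters share. Deviations of LPS and untreated arrays of 1 h with the same letter correlated at 0.29, and 38 of 66 pairs of groups exceeded 0.1. With the slide as a random block, the estimated correlation of arrays on a slide was 0.602. The main fit takes all arrays as independent, so its errors leave such dependence out.

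A bound ("at least N-fold") was given where no array of the dimmer group detected the gene, from the mean of the brighter group against the lowest signal of a detected probe. Alternatives covered the background correction (normexp, with the background inferred from the detection p-values), the scaling, the filter, the probe summary, the arrays fitted, the slide, the replicate block, the threshold and each array left out. Leaving out arrays of P3C, R848 and 4 h, and the within-slide values, were added after seeing the data. Genes named were the 15 largest rises and falls, up to 5 called members of each list in each direction and up to 3 uncalled ones by signal, the genes the study discusses, the 6 largest changes to 4 h in each direction and the 5 largest differences between ligands. Fos, Nfkbia, Junb, Fosl2, Jun, Rela, Nlrp3, Icam1, Arc, Dnajb1, Kif1b and the other genes called between ligands were chosen after their values were seen, as were Txnip, Hhex, Nrros, Dusp6 and Gpr183 for their later values. The gene lists and the comparison were chosen with earlier results of these data known. Sequences are RefSeq's, GRCm38.p6. Python 3.11.15, pandas 2.3.3 and matplotlib 3.10.9 were used.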

Additional observations from a re-analysis of the deposited data

Results flagged for a closer look

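The LPS difference changed between 1 and 4 h, by the test of that change in limma, for 478 genes that became more positive and 386 that became more negative, or 117 and 262 with median scaling. Among genes called at 1 h, the change was -3.86 for Egr2, -3.44 for Errfi1, -3.31 for Egr3, -3.06 for Dusp1, -2.21 for Tnfsf9, -2.01 for Dusp2, -1.77 for Fosl2, -1.61 for Gpr183 and -0.58 for Jun on the log2 scale. It was 1.38 for Hhex, 1.52 for Nrros, 1.90 for Dusp6, 2.24 for Txnip, 2.85 for Isg15, 2.91 for Saa3, 3.45 for Gbp3, 3.64 for Ccl2, 3.66 for Rsad2 and 3.77 for Ccl5. Egr2, Egr3, Errfi1, Dusp1 and Dusp2 came down from a rise, Gpr183 went further down, and Txnip and Hhex came back towards the untreated level. Ccl2 was not well above background on the untreated arrays of 4 h, so its value depends on the signal there.

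Some probes without a gene name, which the comparisons by gene leave out, were also called at 1 h. Of 1579 such probes 13 were higher with LPS and 15 lower, with differences up to 3.65 and down to -0.83. In the same fit 256 of all 14119 kept probes were higher and 148 lower. Neither share of the unnamed probes exceeded that of all kept probes.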

How the results depend on the processing

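The rises and falls of 1 h were recomputed under each alternative. With median scaling, which moved the median of all genes from -0.03 to 0.05, the counts were 90 higher and 7 lower than untreated, 5 higher than P3C, 3 higher and 0 lower than R848, and 117 and 262 for a difference more positive or more negative at 4 h. The 4 arrays alone gave 71 and 7, the 8 arrays of 1 h 74 lower, all 6 untreated arrays as the control 273 and 295, and an adjusted p under 0.01 gave 53 lower. The slide as a random block gave 189 lower than untreated, 47 higher and 16 lower than P3C, and 14 higher and 2 lower than R848. With the replicate letter as a block, whose pairing the design does not give, 199 were higher and 148 lower than untreated, 23 and 0 against P3C, 10 and 1 against R848, and 512 and 449 changed to 4 h.

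Leaving out 1 array gave 122 to 149 rises and 55 to 87 falls, 11 to 19 higher and 0 to 1 lower than P3C, 2 to 9 higher than R848, and 358 to 419 and 263 to 366 for the change to 4 h. Of 100 called genes followed, none changed sign, and 50 kept the call in all 17 alternatives. Of the uncalled genes, Ly86 turned to -0.03 with all 6 untreated arrays and Nos2 to 0.01 with the slide as a random block. With 1 array left out C3 ranged from -0.06 to 0.10, Nos2 from -0.01 to 0 and Stat3 from -0.12 to 0.29, and 8 uncalled genes gained a call in at least 1 alternative. Where Il6 and Nos2 lie below background, no level was measured. The cause of these shifts was not tested.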
